A study of Homo sapiens with 8 samples.

Results

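Nodal and Activin signalling was followed through 10 genes in the established human embryonic stem cell line H9, cultured on a soft (400 Pa) or a stiff (60 kPa) gel. The genes were the ligands NODAL, GDF3 and INHBA, the coreceptor TDGF1, the receptor ACVR2B, the secreted inhibitors LEFTY1, LEFTY2, CER1 and FST, and the effector SMAD3. They were chosen by name, as members of this pathway, and each was looked up as a row bearing exactly its symbol in tables of 34690 gene loci (day 3.5) and 33575 gene loci (day 0). Of the 10 genes, 8 had such a row on both days. LEFTY1 and LEFTY2 were found only together, inside a locus that the authors' tables merge with other genes, so neither has a value of its own and the merged locus is given beside the members.

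The 4 groups, of 2 libraries each, were cells induced to mesoderm for 3.5 days on 400 Pa, the same on 60 kPa, undifferentiated cells (day 0) on 400 Pa, and undifferentiated cells on 60 kPa. All cells came from this single line and were kept on gels in medium conditioned by feeder cells. Both induced groups received bFGF, Activin, VEGF and BMP4, so the ligand Activin itself was among the factors added for the induction. Each group has 1 deposited value per gene, in FPKM (fragments scaled to transcript length and to library size), without a value or spread per library, and nothing in the labels says that the libraries of a group were separate cultures.

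Nodal and Activin are ligands of the TGF-beta family. They bind type II receptors such as ACVR2B and type I receptors such as ACVR1B. These phosphorylate SMAD2 and SMAD3, which enter the nucleus with SMAD4. Nodal needs an EGF-CFC coreceptor such as TDGF1 (also named CRIPTO), whereas Activin does not. LEFTY1 and LEFTY2 block Nodal and are themselves Nodal targets, CER1 binds Nodal outside the cell, and FST binds Activin. In human embryonic stem cells the pathway maintains pluripotency, and in the embryo it patterns mesoderm and endoderm.

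In outline, 0 of the 7 members that could be tested were called different between soft and stiff gel on either day, where 1.34% of all tested loci were called at day 3.5 and 0.139% at day 0. Several members stood at very different levels after and before induction on both gels. FST was the member with the highest FPKM in induced cells on both gels, and TDGF1 the highest in undifferentiated cells on both gels. CER1 and FST were higher after induction, and TDGF1 and the merged LEFTY locus were lower.

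Sequences of 2 kinds are given beside these values. The first is the longest open reading frame of each gene in the near-identical pairs, shown because it limits what a count of reads can resolve. Over the 1101 bases of their open reading frames in GENCODE release 29, LEFTY1 and LEFTY2, which lie together on chromosome 1, shared 97.2% of bases (31 differences), with the longest identical run at 300 bases.

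TDGF1 on chromosome 3 and its intronless copy TDGF1P3 on chromosome X shared 98.8% of 567 bases of their open reading frames, with 7 differences. The annotation gives no coding sequence of that length for TDGF1P3. The 90 bases with the most differences, bases 124 to 213 of the TDGF1 frame, hold 3, marked by capitals.
TDGF1: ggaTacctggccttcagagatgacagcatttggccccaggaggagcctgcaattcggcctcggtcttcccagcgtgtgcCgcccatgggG
TDGF1P3: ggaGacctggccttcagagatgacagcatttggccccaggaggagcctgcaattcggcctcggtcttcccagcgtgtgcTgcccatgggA

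The second kind is the 250 bases before the annotated start of NODAL, the ligand at the head of the pathway, of CER1, the member that stood highest after induction relative to undifferentiated cells on both gels, and of TDGF1, the member that stood lowest. They are taken from RefSeq on GRCh38.p14, a build other than the hg19 of the expression tables, and are printed 5′ to 3′ on the gene's strand. NODAL is on the minus strand at chr10:70441682-70441931, CER1 on the minus strand at chr9:14722734-14722983, and the first of the 2 listed starts of TDGF1 on the plus strand at chr3:46574285-46574534. Capitals mark matches, on either strand, to the FOXH1 motif (AATCCACA or AATACACA; FOXH1 is the DNA-binding partner of activated SMAD2 and SMAD3), the SMAD box (CAGAC) and the octamer of POU factors (ATGCAAAT).
NODAL: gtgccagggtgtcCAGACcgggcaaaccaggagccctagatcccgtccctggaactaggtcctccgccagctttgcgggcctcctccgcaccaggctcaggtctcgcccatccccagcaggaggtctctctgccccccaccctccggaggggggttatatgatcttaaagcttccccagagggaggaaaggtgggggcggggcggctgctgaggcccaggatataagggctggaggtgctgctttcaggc
CER1: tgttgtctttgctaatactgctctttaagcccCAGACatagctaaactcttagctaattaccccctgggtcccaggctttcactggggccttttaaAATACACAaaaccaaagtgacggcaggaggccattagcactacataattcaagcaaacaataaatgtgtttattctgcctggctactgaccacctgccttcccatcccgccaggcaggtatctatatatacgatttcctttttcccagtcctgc
TDGF1: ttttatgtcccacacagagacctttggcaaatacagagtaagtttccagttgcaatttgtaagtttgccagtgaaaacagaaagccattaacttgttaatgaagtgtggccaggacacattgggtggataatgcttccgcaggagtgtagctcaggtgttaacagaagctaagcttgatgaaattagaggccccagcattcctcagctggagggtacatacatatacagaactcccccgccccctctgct

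Of the 10 members, 8 had an entry among the promoter sequences. Of those 8, CER1 was the only one with a FOXH1 motif in this window at any listed start, 154 bases before its start. Of all 35116 listed promoters, 1.37% held that motif. A SMAD box was present in NODAL and CER1, and at 2 of the 5 listed SMAD3 starts, against 38.0% of all promoters. The octamer was found at 1 SMAD3 start, against 1.63% of all promoters. These are matches of letters only.

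**Figure D1:**
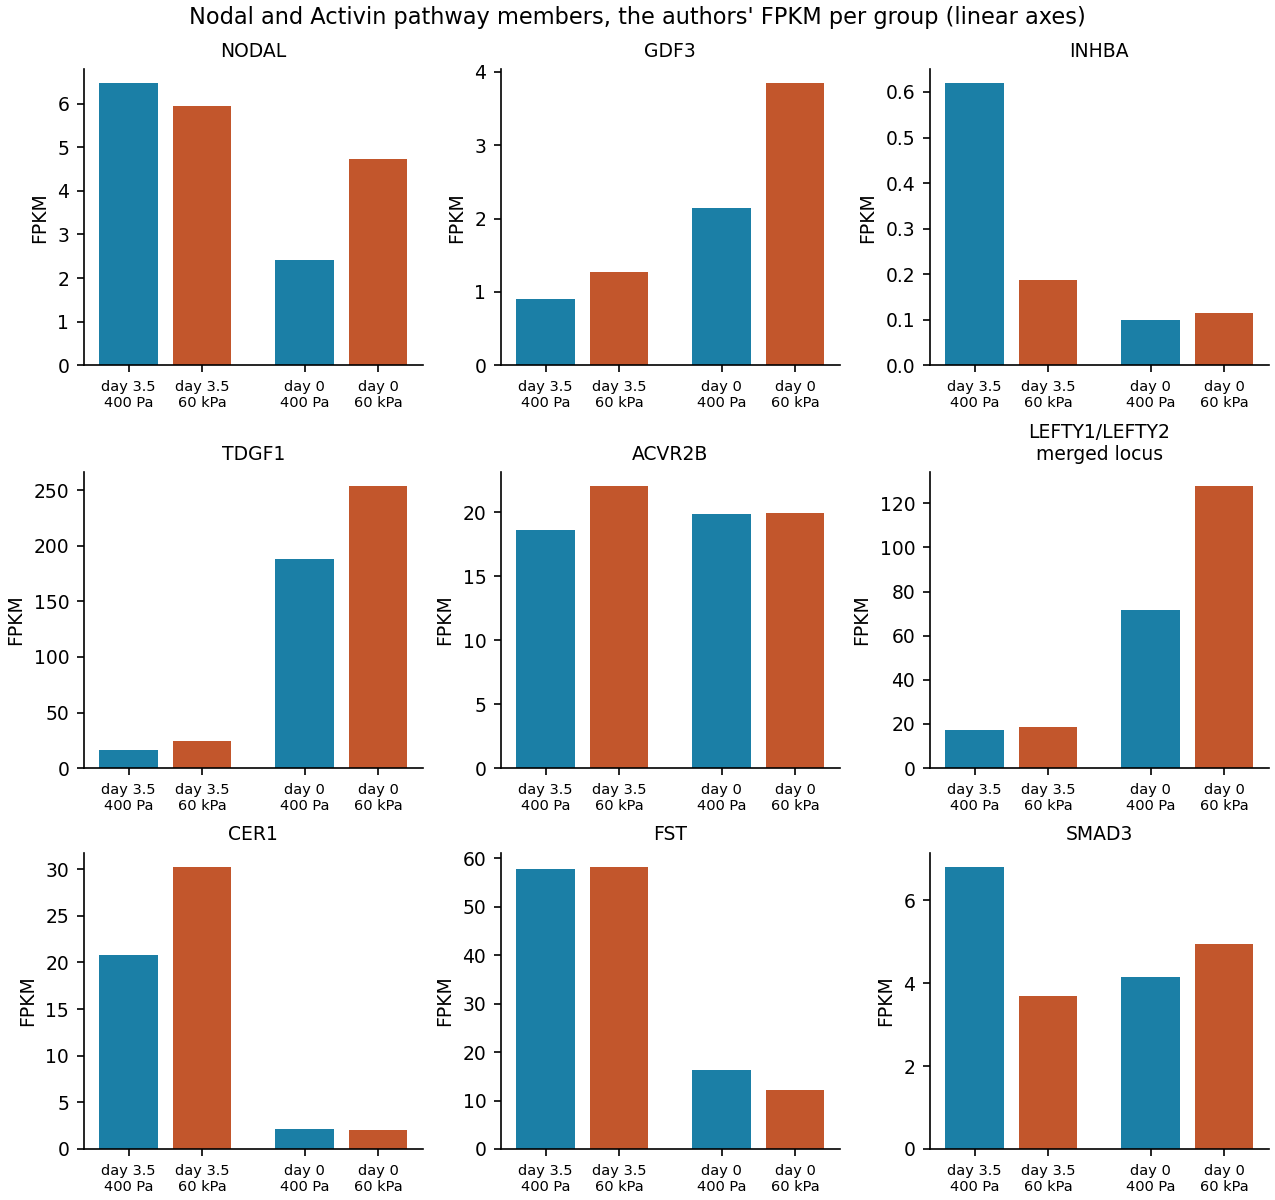
FPKM of each member in the 4 groups, on linear axes that differ between panels; bars are the authors' single value per group, so there are no error bars. TDGF1 was at 15.9 and 24.3 FPKM on 400 Pa and 60 kPa at day 3.5, against 188 and 254 FPKM at day 0, while CER1 and FST were higher at day 3.5 on both gels.

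The sum of mesoderm markers was higher at day 3.5 than at day 0 on both gels, but other marker sums exceeded it at day 3.5. The 6 pluripotency markers all reached 1 FPKM in every group and summed to 384 FPKM on 400 Pa and 660 FPKM on 60 kPa at day 3.5, against 1253 and 1244 FPKM at day 0. The 6 of 7 mesoderm markers with a row of their own summed to 112 FPKM on 400 Pa and 42.3 FPKM on 60 kPa at day 3.5, against 10.4 and 14.8 FPKM at day 0. All 6 were higher on 400 Pa at day 3.5, HAND1 the most (53.8 and 6.07 FPKM), while MIXL1 was nearly level (7.60 and 6.39 FPKM). KDR made up most of each day 0 sum (9.07 and 13.5 FPKM) and was at 23.0 and 14.8 FPKM at day 3.5. By the first sums, RNA of pluripotency genes was still present in the cells labelled as induced to mesoderm. The 3 definitive endoderm markers summed to 4.16 and 4.82 FPKM at day 3.5, nearly all of it CXCR4, and to 0.174 and 0.180 FPKM at day 0. SOX17 (0.235 and 0.380 FPKM) and FOXA2 (0.0274 and 0.0814 FPKM) stayed under 1 FPKM at day 3.5, and at day 0 SOX17 had no row while FOXA2 was listed at 0.0211 and 0 FPKM. The sums of the neuroectoderm markers were 90.7 FPKM on 400 Pa and 192 FPKM on 60 kPa at day 3.5, against 139.5 and 83.0 FPKM at day 0. OTX2 made up most of each sum (69.3 and 152 FPKM at day 3.5, against 136 and 82.2 FPKM at day 0), while PAX6 was at 17.2 and 19.6 FPKM, against 0.597 and 0.167 FPKM. LHX5 was at 4.12 and 20.6 FPKM, against 2.42 and 0.640 FPKM. SOX1 was nearly absent, at 0.0101 and 0.0267 FPKM, against 0.0095 and 0 FPKM. The sums of the amnion and trophoblast markers were 148 and 29.3 FPKM, against 14.0 and 7.18 FPKM. Of these, VTCN1 was at 81.3 and 7.44 FPKM at day 3.5. Of the lineage sums at day 3.5, those of mesoderm, neuroectoderm, and amnion and trophoblast markers stood apart between the gels. That of definitive endoderm was nearly level. The marker sums carry no test, and their part in the values below was not tested.

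The first comparison asked whether stiffness changed the members in induced cells. Of the 7 members tested at day 3.5, 0 were called at q below 0.05 in the authors' deposited table, and 0 had an unadjusted p below 0.05. Over all 18229 tested loci, 1.34% were called and 5.93% had such a p. With a background that low, 0 of 7 is no result about the members. Changes are given as log2((FPKM + 1) on 400 Pa / (FPKM + 1) on 60 kPa), where 1 is added to keep low values stable, so that values above 0 mean a higher level on 400 Pa. The members' median change was -0.23, with 2 above and 5 below 0, against 0.02 over all tested loci. Their median size regardless of sign, 0.26, was close to the 0.27 of all tested loci.

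Beside each change stands an interval for the log2 ratio without the added 1, taken from the ratio and the test statistic in the authors' deposited table. For all 7 tested members on both days the deposited p was smaller than the statistic gives under a normal distribution, as for 98.2% of tested loci at day 3.5 and 98.6% at day 0, so these intervals are wider than the deposited p-values imply. The members' errors ran from 0.44 to 1.18 log2 units at day 3.5 and from 0.33 to 0.98 at day 0 by the statistic, against 0.29 to 0.85 and 0.22 to 0.62 by the deposited p. Among the ligands, NODAL (locus chr10:72191763-72207707 on hg19, as are all loci below) was at 6.46 FPKM on 400 Pa and 5.94 FPKM on 60 kPa at day 3.5, a change of 0.10 (95% interval -1.33 to 1.57). The groups were nearly level. GDF3 (chr12:7842378-7848372), a Nodal-related ligand of pluripotent cells, was at 0.897 and 1.28 FPKM (change -0.26, interval -2.83 to 1.81), just at the expression minimum of 1 FPKM in a group. INHBA (chr7:41706766-41818986), which encodes the subunit of Activin A, was at 0.619 and 0.186 FPKM and was not tested by the authors. The cells' own Activin A message was thus below 1 FPKM on both gels.

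The coreceptor TDGF1 (chr3:46556913-46668033) was at 15.9 FPKM on 400 Pa and 24.3 FPKM on 60 kPa at day 3.5 (change -0.58, interval -1.98 to 0.75). It was not called, and its interval includes 0. Its copy TDGF1P3 was at 1.70 FPKM on 400 Pa and 3.73 FPKM on 60 kPa, 10.7% and 15.3% of the TDGF1 level, and reads of these near-identical genes may have been split between them. ACVR2B (chr3:38388251-38535470), a type II receptor for Nodal and Activin, was at 18.6 and 22.0 FPKM (change -0.23, interval -1.10 to 0.62). That interval is the narrowest of the 7 members at day 3.5. The overlapping antisense gene ACVR2B-AS1 was at 3.10 and 2.96 FPKM, and since the strand setting of the counting is not given in the sources used here, reads of this pair cannot be told apart.

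Of the inhibitors, CER1 (chr9:14716778-14722766) was at 20.8 FPKM on 400 Pa and 30.2 FPKM on 60 kPa at day 3.5 (change -0.52, interval -1.78 to 0.70). FST (chr5:52774580-52783141) was at 57.7 and 58.2 FPKM (change -0.01, interval -1.10 to 1.08). FST was thus the most level of the 7 members across the gels at this day. The merged locus of LEFTY1 and LEFTY2 was at 17.4 and 18.6 FPKM (change -0.09, interval -1.19 to 1.0). Genes outside this pathway contribute an unknown share of it.

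SMAD3 (chr15:67356101-67487653), the effector, was at 6.80 FPKM on 400 Pa and 3.68 FPKM on 60 kPa at day 3.5, a change of 0.74. It had the largest change of the 7 members and the smallest p in the authors' deposited table, 0.0577, with q = 0.962. Its interval was -1.35 to 3.13. The gap between both measures of error was wide for SMAD3, whose statistic gives p = 0.438 under a normal distribution, in place of the 0.0577 of the authors' deposited table.

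**Figure D2:**
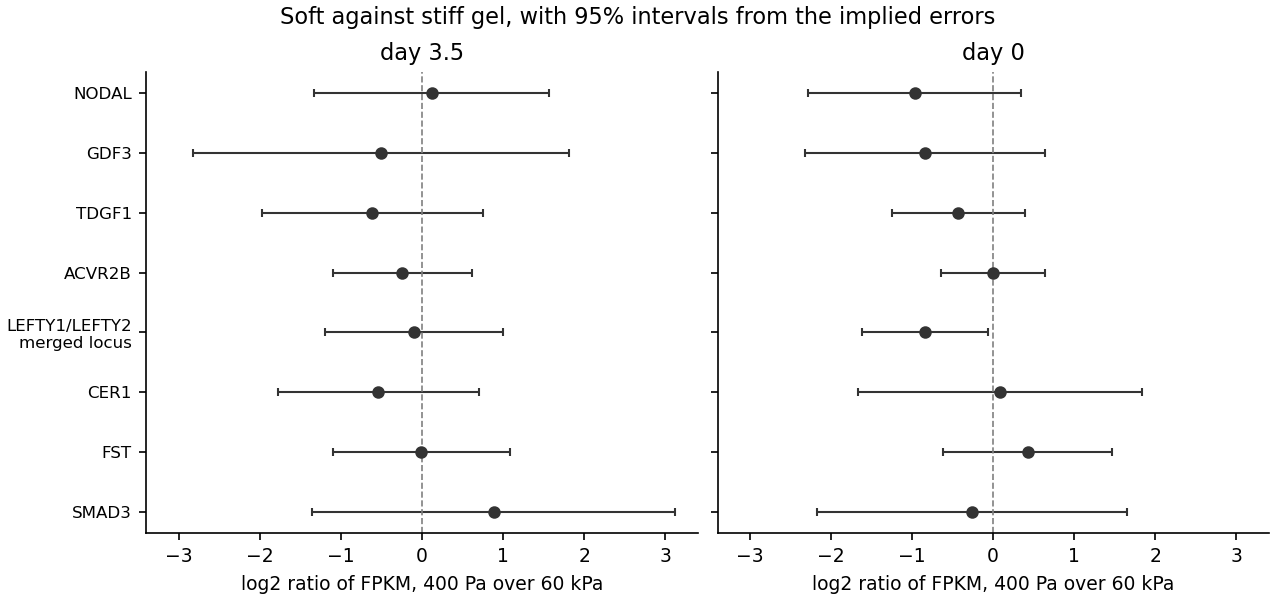
Log2 ratio of FPKM on 400 Pa over 60 kPa for each tested member and the merged LEFTY locus, at day 3.5 and day 0; points are the authors' ratio and lines the approximate 95% interval from the implied error. At day 3.5 every interval includes 0, and at day 0 only that of the merged locus, -1.61 to -0.06, lies off 0.

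In undifferentiated cells, 0 of the 7 tested members were called in the authors' deposited table either, against 0.139% of 17318 tested loci. At an unadjusted p below 0.05 there was 1 of 7, NODAL, against 1.86% of all tested loci. The median change was -0.21, with 2 members above and 5 below 0, against 0.02 over all tested loci, and the median size regardless of sign was 0.40, against 0.18. NODAL was at 2.41 FPKM on 400 Pa and 4.73 FPKM on 60 kPa (change -0.75, interval -2.28 to 0.34, p = 0.0469 in the authors' deposited table, where it was not called). GDF3 stood in the same order, at 2.14 and 3.84 FPKM (change -0.62, interval -2.33 to 0.64). Neither ligand was called.

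The merged LEFTY locus had a smaller p than any of the 7 members at day 0. It was at 71.5 FPKM on 400 Pa and 128 FPKM on 60 kPa (change -0.83, interval -1.61 to -0.06), with p = 0.00145 and q = 0.585 in the authors' deposited table. It did not pass the adjustment, and which of its genes differed cannot be read from the table. TDGF1 was at 188 and 254 FPKM (change -0.43, interval -1.25 to 0.39, p = 0.0815 in the authors' deposited table). As for NODAL and GDF3, there was no call.

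The remaining members lay nearer to 0 or on the other side at day 0. ACVR2B was at 19.9 FPKM on 400 Pa and 20.0 FPKM on 60 kPa (change -0.01, interval -0.65 to 0.64). As an approximate interval, it lies within a 2-fold difference in either direction. CER1 was at 2.10 and 1.98 FPKM (change 0.06), and SMAD3 at 4.13 and 4.95 FPKM (change -0.21). FST was at 16.4 and 12.2 FPKM (change 0.40, interval -0.62 to 1.47), the only member besides CER1 that was higher on the soft gel. INHBA was at 0.0994 and 0.114 FPKM and was again not tested by the authors.

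Whether the effect of stiffness differed between the days was tested as the difference of the log2 ratios of both days, with the implied errors and Benjamini-Hochberg adjustment over 15294 loci. Of the 7 members, 0 differed, against 0.0719% of all loci. At an unadjusted p below 0.05 there were 0 of 7 as well, against 0.896% of all loci. With the errors implied by the deposited p, an alternative chosen after seeing the data, 0 members differed at either threshold, against 0.314% and 3.47% of loci. The largest differences between days, as 400 Pa over 60 kPa at day 3.5 minus the same at day 0, were 1.14 log2 units for SMAD3 (interval -1.80 to 4.09) and 1.09 for NODAL (interval -0.87 to 3.05). For NODAL the order of the gels was opposite on the 2 days, but the difference did not pass the test.

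The second comparison set induced beside undifferentiated cells on each gel. The tables of the days were made separately, so these levels are side by side and carry no test. In RNA from whole cultures, fewer cells that express a gene and less RNA per cell cannot be told apart. On 400 Pa, 3 of the 7 members that reached 1 FPKM on a day were at least 2-fold higher at day 3.5 on log2(FPKM + 1), and 1 was at least 2-fold lower. Over all loci these shares were 9.34% and 7.62%. On 60 kPa, 2 were higher and 2 lower, over shares of 7.02% and 5.07%. The median locus moved by -0.03 on 400 Pa and by 0.01 on 60 kPa.

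CER1 stood highest after induction relative to day 0. It was at 20.8 FPKM at day 3.5 and 2.10 FPKM at day 0 on 400 Pa, 9.88-fold higher, and at 30.2 and 1.98 FPKM on 60 kPa, 15.3-fold higher. Its percentile among expressed loci was 72.9% on 400 Pa and 81.0% on 60 kPa at day 3.5, against 26.8% and 26.1% at day 0. CER1 is also a gene of definitive endoderm in the embryo. Of the 3 markers of that tissue, CXCR4 was at 3.90 FPKM on 400 Pa and 4.36 FPKM on 60 kPa at day 3.5, against 0.152 and 0.180 FPKM at day 0, and SOX17 and FOXA2 stayed under 1 FPKM. Their part in the CER1 level was not tested. FST was at 57.7 and 16.4 FPKM on 400 Pa (3.53-fold higher at day 3.5) and at 58.2 and 12.2 FPKM on 60 kPa (4.78-fold higher). Both secreted inhibitors with a row of their own were thus higher after induction on either gel.

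TDGF1 showed the reverse order. It was at 15.9 FPKM at day 3.5 and 188 FPKM at day 0 on 400 Pa, so that day 0 was 11.8-fold higher, and at 24.3 and 254 FPKM on 60 kPa, where day 0 was 10.4-fold higher. At day 3.5 it lay above 67.4% of expressed loci on 400 Pa and 77.0% on 60 kPa, against 95.9% and 96.9% at day 0. TDGF1P3 followed the same order, at 1.70 and 27.1 FPKM on 400 Pa and at 3.73 and 36.0 FPKM on 60 kPa. TDGF1 is a widely used marker of undifferentiated stem cells, and the summed pluripotency markers given above were lower at day 3.5 as well. They did not all share that order: on 60 kPa SOX2 was at 164 FPKM at day 3.5 and 116 FPKM at day 0. LIN28A was nearly level there, at 239 and 249 FPKM. The part of these markers in the TDGF1 level was not tested. The merged LEFTY locus was at 17.4 and 71.5 FPKM on 400 Pa, and at 18.6 and 128 FPKM on 60 kPa. It was higher at day 0, by 4.12-fold and 6.88-fold.

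The ligands did not share a direction. NODAL was at 6.46 FPKM at day 3.5 and 2.41 FPKM at day 0 on 400 Pa (2.68-fold), and at 5.94 and 4.73 FPKM on 60 kPa (1.26-fold). The smaller ratio on 60 kPa goes with the higher day 0 level there, and the test between days given above did not separate the gels. GDF3 was at 0.897 and 2.14 FPKM on 400 Pa and at 1.28 and 3.84 FPKM on 60 kPa, lower after induction on both gels. ACVR2B was nearly level, at 18.6 and 19.9 FPKM on 400 Pa and 22.0 and 20.0 FPKM on 60 kPa. SMAD3 was at 6.80 and 4.13 FPKM on 400 Pa and at 3.68 and 4.95 FPKM on 60 kPa. SMAD3 thus stood higher after induction on the soft gel and lower on the stiff gel, a contrast that did not pass the test between days.

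**Figure D3:**
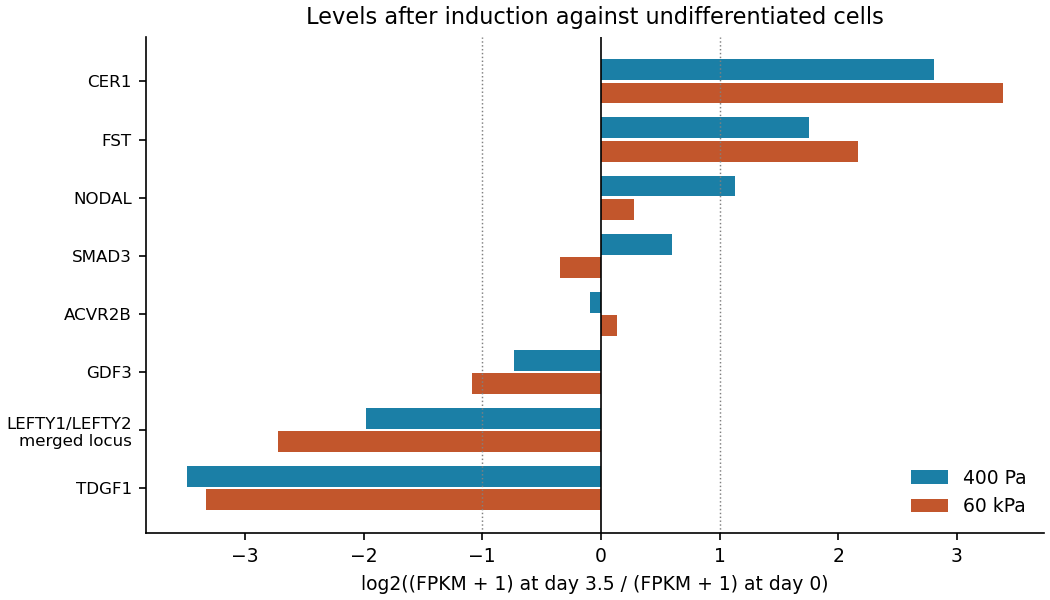
Change from day 0 to day 3.5, as log2((FPKM + 1) at day 3.5 / (FPKM + 1) at day 0), on 400 Pa (upper bar of each pair) and 60 kPa (lower bar); dotted lines mark a 2-fold change and there is 1 value per group. CER1 (2.81 and 3.39) and FST (1.76 and 2.17) lie to the right, and the merged LEFTY locus (-1.98 and -2.72) and TDGF1 (-3.49 and -3.33) to the left.

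Ratios of the members' levels, which FPKM allows to be compared per length, differed between the days to unequal extents. The FPKM of CER1 was 3.21 times that of NODAL on 400 Pa and 5.08 times on 60 kPa at day 3.5, against 0.870 and 0.419 times at day 0. The FPKM of TDGF1 was 2.46 and 4.09 times that of NODAL at day 3.5, against 78.1 and 53.7 times at day 0. The FPKM of FST was 8.94 and 9.79 times that of NODAL at day 3.5, against 6.79 and 2.58 times at day 0. For ACVR2B these ratios were 2.88 and 3.71 at day 3.5, against 8.23 and 4.22 at day 0. In order of FPKM, induced cells on 400 Pa had FST, CER1, ACVR2B, TDGF1, SMAD3, NODAL, GDF3 and INHBA. Undifferentiated cells on 400 Pa had TDGF1, ACVR2B, FST, SMAD3, NODAL, GDF3, CER1 and INHBA. On 60 kPa TDGF1 stood above ACVR2B and NODAL above SMAD3 at day 3.5, and the day 0 order was the same as on 400 Pa. On 400 Pa, neighbours such as CER1 and ACVR2B at day 3.5 (1.11-fold apart) or GDF3 and CER1 at day 0 (1.02-fold apart) differ by little. No spread between libraries is given against which to set them.

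By the distance over the 4 groups of log2(FPKM + 1) minus its mean, the 5 loci most like NODAL among 16961 were RP4-620F22.3 (distance 0.03), RP3-466P17.2 (0.06), the merged locus of LINC00115 (0.07), RP11-89K11.1 (0.08) and RP11-488L18.10 (0.12). With 4 points per gene, 28 loci lay within 0.2. In the order given, the highest group values of the 5 loci were 2.35, 1.11, 2.24, 1.52 and 4.05 FPKM, against 6.46 FPKM for NODAL. None of these 5 is a member. The nearest member, SMAD3, was at 0.82, with 5034 loci nearer than it.

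The wider pathway was described by 57 genes in 6 role groups, members included, of which 52 had a row of their own on at least 1 day. At day 3.5, 43 were tested, and the authors' deposited table called 2, both higher on 400 Pa, with 3 at an unadjusted p below 0.05. Over all tested loci 1.34% were called and 5.93% had such a p. The median change was 0.06, against 0.02 over all tested loci. BAMBI, a pseudoreceptor that blocks TGF-beta family signals and also responds to BMP, was at 199 FPKM on 400 Pa and 35.2 FPKM on 60 kPa (change 2.47, SE 0.47, q = 0.00783 in the authors' deposited table). FURIN, a convertase that cleaves ligand precursors including that of Nodal, was at 21.9 and 7.61 FPKM (change 1.41, SE 0.76, q = 0.00783 in the authors' deposited table). The SE is the error implied for the log2 ratio without the added 1. The p of both genes in the authors' deposited table, 5e-05, is the smallest among tested loci at day 3.5. Their equal q therefore does not rank them. SMAD7, the inhibitory SMAD induced by the pathway, was at 19.2 and 8.13 FPKM and was not called (p = 0.0211 and q = 0.558 in the authors' deposited table).

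At day 0, 38 of these 57 genes were tested, and the authors' deposited table called 0, with 3 at an unadjusted p below 0.05 (NODAL, INHBE and BAMBI). Over all tested loci 0.139% were called and 1.86% had such a p. The median change was 0.02, as over all tested loci. BAMBI was at 18.8 FPKM on 400 Pa and 12.3 FPKM on 60 kPa in undifferentiated cells (p = 0.0384 in the authors' deposited table), and FURIN was at 6.08 and 6.55 FPKM. The difference between days did not pass the adjusted threshold for BAMBI or FURIN.

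**Figure D4:**
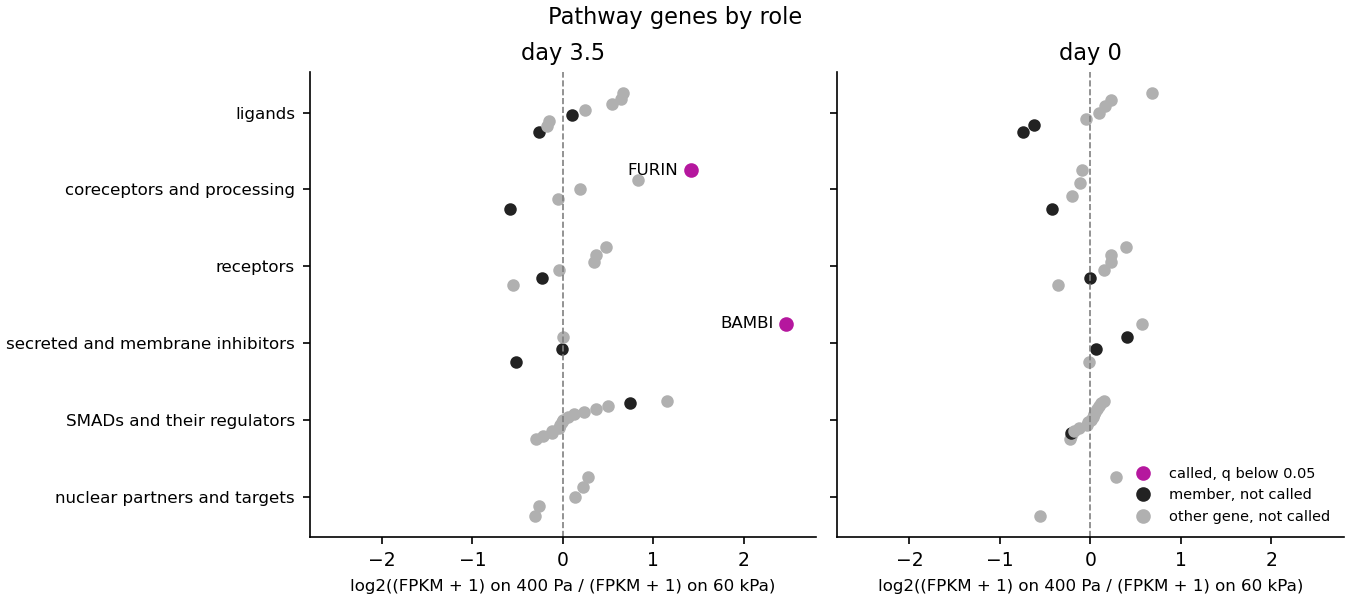
Change between the gels, as log2((FPKM + 1) on 400 Pa / (FPKM + 1) on 60 kPa), for every tested pathway gene by role at day 3.5 (43 genes) and day 0 (38 genes); vertical position within a role only separates the points. BAMBI (2.47) and FURIN (1.41) are called at day 3.5 and 0 genes at day 0, and the black points of the members lie between -0.75 and 0.74.

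The most abundant other genes of each role were not called on either day, apart from BAMBI and FURIN at day 3.5. Among receptors, TGFBR1, the type I receptor for TGF-beta, was at 34.2 FPKM on 400 Pa and 35.3 FPKM on 60 kPa at day 3.5, against 27.3 and 23.1 FPKM at day 0. ACVR2A, the second type II receptor of Activin, was at 17.1 and 12.0 FPKM, against 10.7 and 9.0 FPKM. SMAD2, the partner effector of SMAD3, was at 88.3 and 91.2 FPKM at day 3.5, against 80.0 and 74.7 FPKM at day 0. On the scale of FPKM, SMAD2 thus exceeded SMAD3 in all 4 groups. TGIF1, a SMAD corepressor, was at 117 and 127 FPKM at day 3.5, against 141 and 164 FPKM at day 0. Among ligands, GDF11 lay between 5.94 and 7.04 FPKM in all groups. INHBE, an inhibin beta subunit, was at 2.23 and 2.66 FPKM at day 3.5, against 5.75 and 3.20 FPKM at day 0 (p = 0.0241 in the authors' deposited table at day 0, not called). PCSK5, another convertase, lay between 3.34 and 4.35 FPKM, and FSTL3, a relative of FST that also binds Activin, between 2.77 and 3.66 FPKM.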

How the data were processed

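Total RNA of H9 cells was sequenced in 8 libraries, 2 for each of 4 groups. The deposited tables, 1 per day, hold FPKM values that the authors made with Cufflinks on hg19, per the submitters' processing notes, with version, aligner and annotation not given in the sources used here. Read depth is unknown. There is 1 FPKM per group and none per library. The deposited comparison of the gels gives a log2 ratio (60 kPa over 400 Pa) and a test statistic, used as a score. The authors' p-value and q-value stand beside it. What spread these p-values measure cannot be read from 1 value per group. The libraries of a group may be technical, so the p-values need not cover a spread between separate cultures.

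The calls are those of the authors' deposited comparison at q below 0.05, over loci they tested with at least 1 FPKM in a group, counting each symbol once by its row of highest mean. Recomputing the Benjamini-Hochberg adjustment over all 20670 and 19486 loci the authors tested (day 3.5 and day 0) returned the deposited q-values. The signs of the deposited ratios were turned to 400 Pa over 60 kPa. The implied error is the ratio divided by the statistic, and intervals span 1.96 errors. The test between days uses a normal approximation. It was run on simulated data drawn with normal errors of the implied size. That simulation cannot show whether these errors hold for the deposited data. Changes use a pseudocount of 1, which understates those of low genes. Deposited locus starts count from 0 (lengths matched GENCODE genes on that reading at 3854 of 8342 loci, against 99 on the other) and are written 1-based; a locus may span several genes.

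Members, gene lists and tests were chosen with earlier results of these data known. Named genes were all members, every pathway gene called on either day, the 2 most abundant other genes per role and the 5 loci nearest to NODAL. The markers SOX17, FOXA2, CXCR4, SOX2, LIN28A, OTX2, PAX6, LHX5, SOX1, HAND1, KDR and VTCN1 were added after their values were seen. So were SMAD7, TDGF1P3 and ACVR2B-AS1, and EOMES, MIXL1 and the other nuclear genes of the closing section. Among the pathway list, SMAD4 and TGIF2 lie in merged loci and GDF1 was not analysed here; some other genes and sequences are not reported here and are left out of the counts and sums of the lists. Values were computed in Python 3.11.15 with numpy 2.4.6, pandas 2.3.3 and scipy 1.17.1, and drawn with matplotlib 3.10.9.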

Additional observations from a re-analysis of the deposited data

How the results depend on the processing

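The counts of members called between the gels stayed at 0 on both days with q below 0.1 or 0.01, with no FPKM minimum or one of 5, with a new adjustment over the loci at the FPKM minimum, and with every row of a gene. The smallest q of a tested member in the authors' deposited table was 0.962 at day 3.5 and 0.9998 at day 0. The other q thresholds and FPKM minima could therefore not change these counts. The count of members that differed between the days stayed at 0 with an FPKM minimum of 5 and with errors from the deposited p, the second chosen after seeing the data. Of members at least 2-fold apart between the days, 4 on each gel, the count on 400 Pa was 2 when 4-fold was asked for; the other thresholds, pseudocounts of 0.1 and 0.5, and centring gave counts within 1.5 times. Of 132 alternatives for single genes, pseudocounts, centring on the median and summed rows, 0 reversed a direction. A pseudocount added on both sides cannot reverse a direction, and summed rows returned the main values. Only centring could therefore have done so. The alternatives for the called non-members were chosen after seeing the data. No paired analysis was possible because each table holds 1 value per group, and for the same reason no replicate could be left out. Implied errors have a median of 0.70 log2 units at day 3.5 and 0.67 at day 0 over the tested members, or 0.48 and 0.44 when taken from the deposited p, and read depth is unknown.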

Other observations

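Among the 8 nuclear partners and targets of the pathway reported here, levels on the days differed in direction. FOXH1, the factor through which activated SMAD2 and SMAD3 bind many Nodal targets, was at 2.40 FPKM on 400 Pa and 3.20 FPKM on 60 kPa at day 3.5, against 11.6 and 9.38 FPKM at day 0. NANOG, a pluripotency factor that the pathway sustains in human stem cells, was at 2.46 and 3.16 FPKM, against 16.7 and 24.9. EOMES and MIXL1, which Nodal and Activin induce in the primitive streak, were at 4.40 and 3.44 and at 7.60 and 6.39 FPKM at day 3.5, and all under 1 FPKM at day 0. LHX1 was at 1.37 and 1.15 FPKM, against 0.131 and 0.0864, and GSC, SOX17 and FOXA2 stayed under 1 FPKM wherever they had a row. Of these 8 genes, 5 were tested between the gels at day 3.5 and 2 at day 0, and 0 were called in the authors' deposited tables. Over all tested loci 1.34% and 0.139% were called, so this is no result about these genes. The levels of the days carry no test.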
